A study of Mus musculus with 12 samples.

Results

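The 36 genes described here act in the interferon response and in antigen presentation by class I molecules. They were taken by name from both count tables, and all 36 were present among the 37931 genes that the tables shared. They comprised 4 transcription factors, 3 RNA sensors, 18 induced effectors, 3 immunoproteasome subunits, 3 genes of peptide transport and loading, 3 class I molecules, and a galectin with a galectin-binding protein. They were followed in sorted stem cells of the mouse hair follicle that had lost Foxc1, a forkhead transcription factor, and in controls.

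Cells of back skin were freed with collagenase and trypsin and sorted for H2BGFP, CD34 and CD49f and against Sca-1. Knockout (KO) mice were K14-H2BGFP, K14Cre, Foxc1 fl/fl. Wild-type (WT) controls were K14-H2BGFP, Foxc1 fl/fl, so both genotypes carried the floxed alleles and the fluorescent histone, and only KO carried Cre. The keratin 14 promoter is active in basal keratinocytes of the epidermis as well as in the follicle, so that recombination was not limited to the sorted cells. Anagen, the growth phase, was represented by 2 KO libraries titled day 29 and 31 and 3 WT libraries titled day 29, 30 and 31. Early telogen, the resting phase, was represented by 4 KO libraries, numbered 1, 2, 3 and 5, and by 3 WT libraries, numbered 1, 3 and 4, all with an age label of 47 days. Anagen WT replicate 3 carried an age label of 43 days, and early telogen KO replicate 5 was titled day 43. The labels do not say that the libraries came from separate animals, so p-values measure the spread between libraries only.

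The stage of a library coincided with its table and its depth, which was 29025553 to 54482469 counts in anagen and 2662083 (KO replicate 5) to 11821916 counts in early telogen, so these cannot be told apart. Foxc1 was at 0.241 ± 0.0494 CPM (counts scaled to a common total per library; SD, n = 2) in anagen KO against 65.9 ± 43.8 CPM in WT (n = 3), and at 1.86 ± 1.03 CPM (n = 4) in early telogen KO against 54.7 ± 9.48 CPM in WT (n = 3). The 10 markers of hair follicle stem cells fixed for the label check, among them Krt15, Krt5, Krt14 and Cd34, were detected in all 12 libraries. Cd34, whose product was used in the sort, fell in early telogen KO (edgeR adjusted p = 0.0212). In the average KO effect over both stages Cd34, Krt15 and Nfatc1 fell, by 1.22, 1.19 and 0.81 on the log2 scale (edgeR adjusted p = 0.00479, 0.0118 and 0.0272), and 9 of the 10 estimates were negative. In early telogen alone, the estimates for Krt15 and Nfatc1 were -0.23 and -0.22 and did not pass (edgeR adjusted p = 0.786 and 0.758). In anagen the level of Krt15, a keratin of the follicle bulge, averaged 1723 ± 663 CPM over the KO libraries and 7003 ± 2325 CPM over the WT libraries, and this difference did not pass (log2 fold change -2.12 ± 0.41, edgeR adjusted p = 0.156). By the sex labels, the anagen KO libraries were female, as was 1 of 3 anagen WT libraries, the other 2 being male. In early telogen, the count columns of KO replicates 1 and 3 and of WT replicates 1 and 3 were marked f. Those of KO replicate 2 and WT replicate 4 were marked m, and that of KO replicate 5 carried neither letter.

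Interferons bind cell surface receptors whose JAK kinases phosphorylate STAT proteins. Type I interferons act mainly through a complex that includes STAT2 and IRF9 and binds the interferon-stimulated response element (ISRE), whereas interferon gamma acts mainly at gamma-activated sites (GAS). The induced genes include antiviral effectors and the machinery that cuts proteins into peptides in the immunoproteasome, pumps them into the endoplasmic reticulum through TAP, and displays them on class I molecules. The hair follicle is known as a site of immune privilege, in which class I display is kept low.

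A promoter window from RefSeq, on build GRCm38.p6, was found for 29 of the 36 genes and reached from 250 bases before the gene's start to 50 bases from it on. An ISRE-type match, which is GAAA, then 2 bases of any kind, then GAAA again, searched on both strands, lay in 13 of these 29 windows (44.8%), against 3.99% of all 27025 genes with a window. A GAS-type match, spelled TTCNNNGAA (its own reverse complement in form), lay in 5 of 29 (17.2%), against 9.55% of all genes. Overlapping matches were counted as separate matches within a window. B2m and Lgals9 are shown because they rose in early telogen KO and hold ISRE-type matches, and Isg15, chosen after its values were seen, is shown as a classical target that did not pass. The stretches run 5′ to 3′ on the gene's strand, at chr2:122147517-122147685 (plus), chr11:78984947-78985044 (minus) and chr4:156200819-156200938 (minus), and capitals mark the matches.
B2m promoter: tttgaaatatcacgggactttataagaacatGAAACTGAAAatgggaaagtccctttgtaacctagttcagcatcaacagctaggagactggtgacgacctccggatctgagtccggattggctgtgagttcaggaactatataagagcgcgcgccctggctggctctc
Lgals9 promoter: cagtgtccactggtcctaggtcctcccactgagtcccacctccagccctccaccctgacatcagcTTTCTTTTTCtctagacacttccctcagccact
Isg15 promoter: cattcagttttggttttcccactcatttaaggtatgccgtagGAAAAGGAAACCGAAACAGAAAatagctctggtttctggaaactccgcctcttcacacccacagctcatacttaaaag
The B2m window held 1 match, whose first base lay 139 bases before the start. The Lgals9 match shown read as the reverse complement and began 55 bases before the start. Isg15 held 3 overlapping matches, at 78, 72 and 66 bases before its start. Of the 9 genes of antigen presentation, 8 had a window and B2m was the 1 with an ISRE-type match. The Psmb8 window held a GAS-type match, TTCCCAGAA, which began 97 bases before the start. These matches are descriptions of the letters only.

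Every KO library lay above every WT library for 8 of the 9 antigen presentation genes in anagen and for 8 of 9 in early telogen. For the induced effectors the same held for 9 of 15 genes tested in anagen and for 3 of 12 in early telogen. Over all genes tested it held for 18.5% in anagen and 9.75% in early telogen. In early telogen, 3 of the 29 genes that passed the filter on low counts rose in KO, namely Psmb8, B2m and Lgals9, and 0 fell, while 0.499% of the 12030 genes tested rose. A gene passed at an edgeR quasi-likelihood p under 0.05 after Benjamini-Hochberg adjustment over all genes tested. At an unadjusted p under 0.05 there were 13 of 29, against 12% of all genes. In anagen, 0 of 33 passed, and 0 of all 14409 genes (0%), so that Foxc1 itself did not pass there. At an unadjusted p under 0.05 there were 8 of 33 in anagen, against 10.1% of all genes. DESeq2 called 499 genes in anagen, with 0.649% of those given an adjusted p higher in KO and 2.91% lower, and among them were 3 of the 33 members, all higher (Irf7, Isg15 and Lgals9). Not tested were Ifit3, Oas2 and Ifi44 in anagen and Dhx58, Ifit2, Ifit3, Oas2, Oas3, Mx2 and Ifi44 in early telogen, because of low counts.

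The median log2 fold change of KO against WT was 0.52 over the 33 genes tested in anagen, against 0.02 over all genes, and 0.49 over the 29 tested in early telogen, against 0.03 over all genes. Every KO library lay above every WT library for 22 of 33 genes in anagen, against 18.5% of all genes, and for 15 of 29 in early telogen, against 9.75%. Both held for 12 of the 29 genes tested in both stages, against 2.54% of the 11926 genes tested in both: B2m, Gbp2, H2-D1, H2-K1, Ifi27, Ifi35, Irf1, Lgals9, Psmb9, Tap1, Tap2 and Tapbp. No member tested lay with every KO library below every WT library in either comparison, where 11.2% of all genes did so in anagen and 3.37% in early telogen. Members too low to test, such as Ifi44, were not counted here. The counts of groups without overlap, for members and for all genes alike, used CPM without the scaling between libraries used in the fits. In early telogen the 2 scales differ: Psmb7 averaged 108 CPM in KO and 101 CPM in WT, with a log2 fold change of -0.08. Whether narrow gaps hold after that scaling was not tested.

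**Figure D1:**
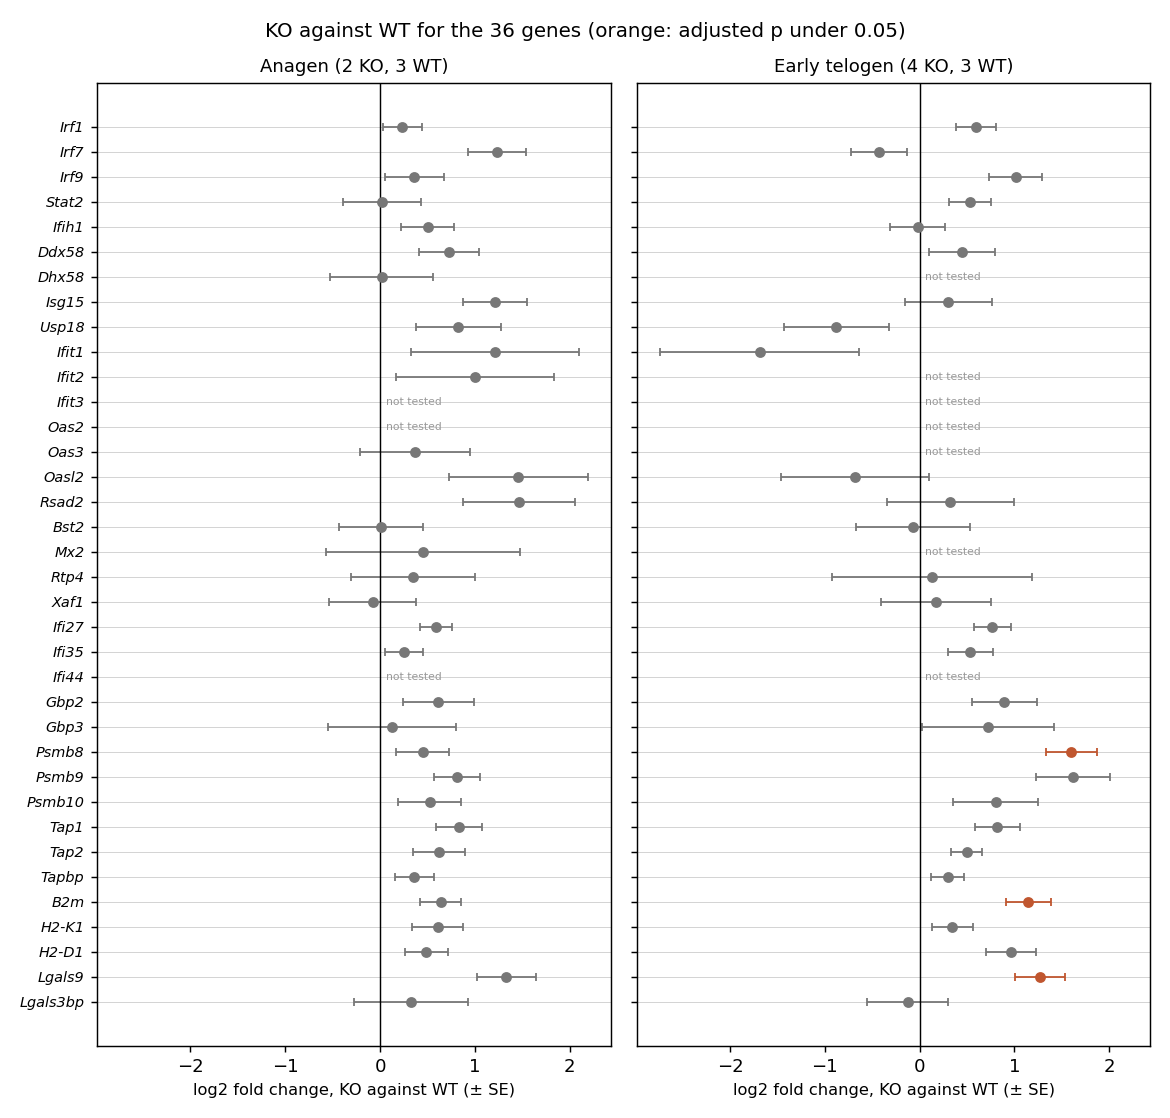
Log2 fold change of KO against WT for each gene tested, with anagen and early telogen values side by side and bars for the standard error of the fit. In anagen 32 of 33 estimates were above 0, against 51.9% of all genes, and in early telogen 22 of 29, against 53.7%.

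Class I molecules sit at the cell surface as a heavy chain, here H2-K1 or H2-D1, bound to beta-2 microglobulin, the product of B2m. B2m lies at chr2:122147686-122153083 on the plus strand, in GENCODE M21 coordinates of the same build, and has 4 merged exons. In early telogen its levels were 728, 900.1, 838 and 1151 CPM in KO replicates 1, 2, 3 and 5, and 355, 301 and 442 CPM in WT replicates 1, 3 and 4. The lowest KO library thus lay above the highest WT library, and B2m rose with a log2 fold change of 1.15 ± 0.24 SE (edgeR adjusted p = 0.0385). In anagen its levels were 706 and 682 CPM in KO and 370.3, 401 and 484 CPM in WT, again without overlap, and the log2 fold change of 0.64 ± 0.22 did not pass (edgeR adjusted p = 0.380).

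H2-D1 was the gene with the most counts of the 36. In early telogen it stood at 1433, 2069, 1753 and 1833 CPM in KO and at 836, 489 and 1114 CPM in WT. In anagen it stood at 1312 and 1340.1 CPM in KO and at 743, 921 and 1000.3 CPM in WT. The groups did not overlap in either stage, and neither difference passed (log2 fold changes of 0.96 and 0.49, edgeR adjusted p = 0.120 and 0.539). H2-K1 was at 1004, 759, 745 and 656 CPM in early telogen KO and at 645, 552 and 471 CPM in WT. In anagen H2-K1 was at 814 and 879.8 CPM in KO and at 494, 393 and 682 CPM in WT. Its groups lay apart by a narrow margin in early telogen, where KO replicate 5 and WT replicate 1 were neighbours. Class I heavy chain genes have close copies in the mouse genome, and reads placed at more than 1 position were not counted. In anagen such reads made up 31.1% and 32.8% of the tallied counts in KO and 20.1% to 25.8% in WT, and their part in these values was not tested.

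Per kilobase of merged exon, B2m was the most abundant of the 3 class I genes. Its mean level was 425 CPM per kb in early telogen WT and 1051 CPM per kb in KO, while H2-D1 was at 315 and 687 CPM per kb and H2-K1 at 189 and 269 CPM per kb. The transporter genes lay far below on that scale, with Tap1 at 6.01 and Tap2 at 16.3 CPM per kb in early telogen WT. Merged exons join all annotated transcripts of a gene, with 860 bases in B2m and 5476 in Tap1. Ranks between genes on this scale therefore depend on the annotation.

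**Figure D2:**
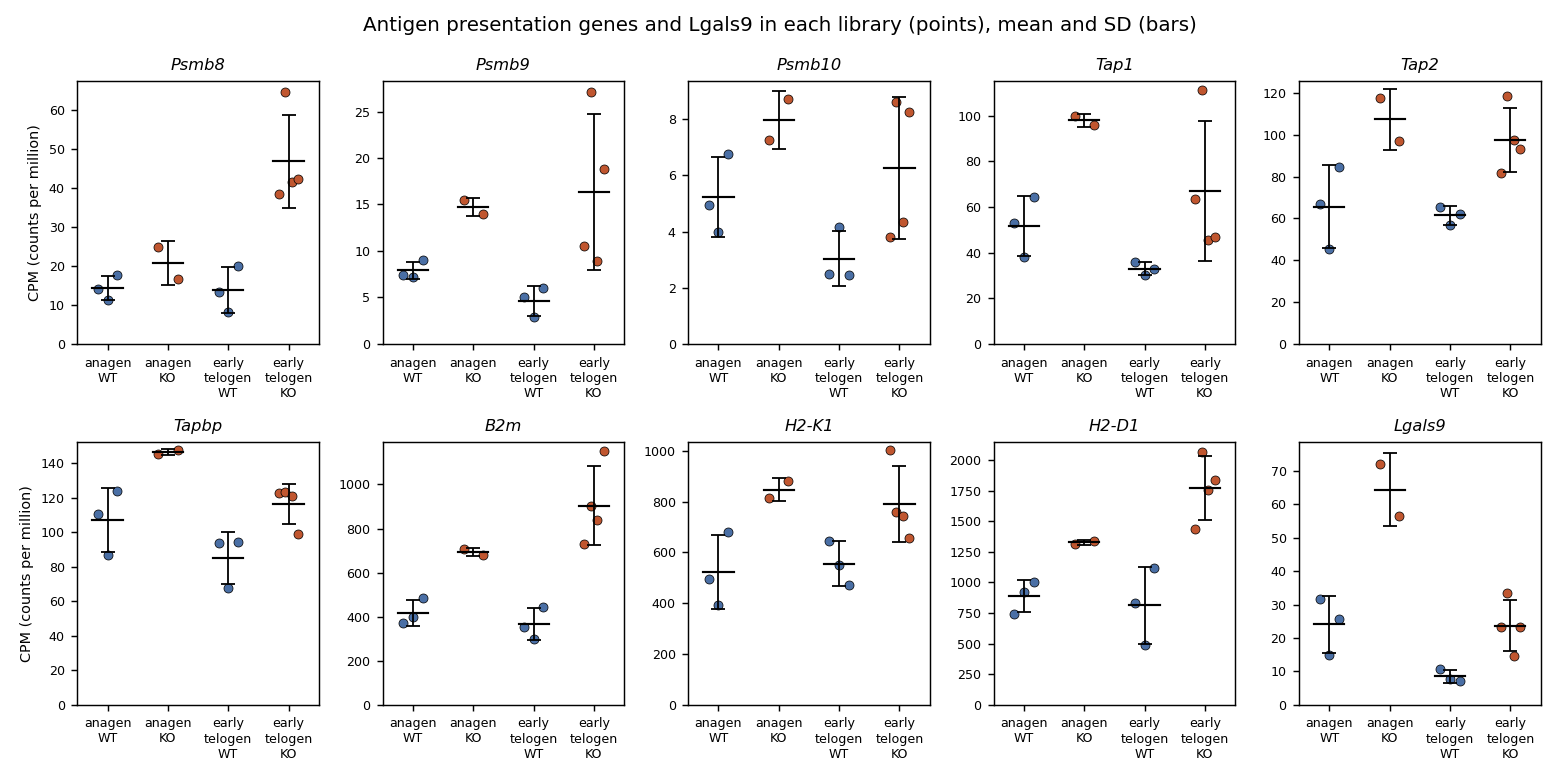
CPM of the 9 antigen presentation genes in each library (points), with the mean and SD of each group (bars), on axes that start at 0. B2m, H2-D1, H2-K1, Tap1, Tap2, Tapbp and Psmb9 showed no overlap between KO and WT in either stage.

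Tap1 and Tap2 encode the subunits of the peptide transporter, and Tapbp encodes tapasin, which holds class I molecules at the transporter. Tap1, Tap2, Psmb8 and Psmb9 lie together within 34335 bases at chr17:34181987-34216321, inside the major histocompatibility complex. In early telogen Tap1 was at 63.6, 111, 45.7 and 47.0 CPM in KO and at 35.8, 30.2 and 32.8 CPM in WT (log2 fold change 0.82 ± 0.24, edgeR adjusted p = 0.138). In anagen Tap1 was at 100.2 and 95.9 CPM in KO and at 53.0, 38.2 and 64.3 CPM in WT (log2 fold change 0.83 ± 0.24, edgeR adjusted p = 0.302). The estimates were of like size in both stages, and early telogen KO replicate 2 stood highest.

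Tap2 was at 81.8, 118, 97.4 and 93.2 CPM in early telogen KO and at 65.6, 56.8 and 62.0 CPM in WT. In anagen Tap2 was at 118 and 97.2 CPM in KO and at 66.9, 45.1 and 84.6 CPM in WT. No overlap was seen in either stage, with log2 fold changes of 0.49 and 0.63 (edgeR adjusted p = 0.216 and 0.509). Tapbp showed the smallest differences of the 3, with 99.2 to 123 CPM in early telogen KO against 67.6 to 94.3 CPM in WT, and 145 to 148 CPM in anagen KO against 87.0 to 124 CPM in WT.

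The immunoproteasome replaces the catalytic beta subunits of the constitutive proteasome. Psmb8 takes the place of Psmb5, Psmb9 that of Psmb6 and Psmb10 that of Psmb7. Psmb8 (chr17:34197721-34201454, plus strand) was the gene of smallest p among the 36 in early telogen. It was at 38.6, 64.7, 41.6 and 42.4 CPM in KO replicates 1, 2, 3 and 5 and at 13.2, 8.16 and 20.1 CPM in WT. Psmb8 thus rose (log2 fold change 1.60 ± 0.27, edgeR adjusted p = 0.0204), with no overlap. In anagen Psmb8 was at 24.8 and 16.8 CPM in KO and at 14.1, 11.3 and 17.6 CPM in WT. There the groups overlapped (log2 fold change 0.45 ± 0.28, edgeR adjusted p = 0.651).

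Psmb9 gave an early telogen estimate as large as that of Psmb8 with more spread, and did not pass. It was at 10.5, 27.1, 8.89 and 18.8 CPM in KO and at 5.0, 2.87 and 6.04 CPM in WT (log2 fold change 1.62 ± 0.39, edgeR adjusted p = 0.0812). In anagen it was at 15.4 and 14.0 CPM in KO and at 7.43, 7.25 and 9.01 CPM in WT (log2 fold change 0.81 ± 0.24, edgeR adjusted p = 0.316). Neither stage showed overlap. Psmb10 ranged from 3.81 to 8.62 CPM in early telogen KO and from 2.45 to 4.17 CPM in WT, which overlapped. In anagen it ranged from 7.25 to 8.72 CPM in KO and from 3.98 to 6.77 CPM in WT. Psmb9 and Tap1 overlap on opposite strands, as does Psmb8 with Gm20496, and the strand option used in counting was not given in the sources used here.

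The constitutive beta subunits did not share this pattern: of 7 tested, 0 passed in either KO comparison by edgeR, and their median log2 fold change was -0.05 in early telogen and 0.08 in anagen. On CPM per kb of merged exon, Psmb8 reached 33.9%, 47.8%, 42.3% and 39.5% of Psmb5 in the early telogen KO libraries and 10.2%, 12.6% and 16.8% in WT. The merged exons were 3381 bases in Psmb8 and 899 in Psmb5, so the size of these percentages depends on the annotation. Without that scaling, the early telogen KO means were 46.8 CPM for Psmb8 and 30.2 CPM for Psmb5. A comparison of the ratio between libraries does not depend on these lengths. Every KO library lay far above every WT library (exact two-sided permutation p = 0.0286, the smallest that 35 regroupings allow, and 0.171 after Benjamini-Hochberg adjustment over 6 ratios). In anagen the same ratio was 8.78 ± 2.13% in KO (SD, n = 2) and 7.17 ± 2.81% in WT (n = 3), with an exact permutation p of 0.4 where 0.1 is the smallest possible. Psmb9 reached 10.3 ± 4.66% of Psmb6 in early telogen KO (n = 4) and 2.72 ± 0.803% in WT (n = 3), with an exact two-sided permutation p of 0.0571. Psmb10 per Psmb7 overlapped between genotypes in both stages.

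**Figure D3:**
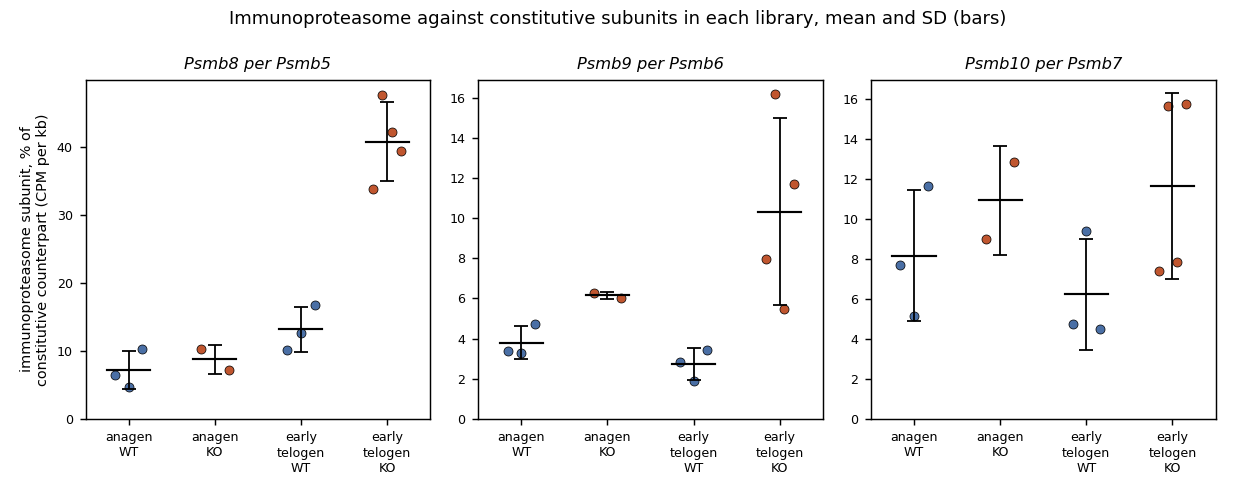
Level of each immunoproteasome subunit as a percentage of the constitutive subunit it replaces, in each library (points), with group mean and SD (bars). Values are from CPM per kb of merged exon, so their size depends on the annotated lengths. Psmb8 per Psmb5 separates early telogen KO (33.9% to 47.8%) from every other group (up to 16.8%). Of 7 constitutive subunits, 5 fell from anagen to early telogen in WT and 5 in KO, so the contrast with the anagen groups is not one of Psmb8 alone.

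Summed over the 9 antigen presentation genes, the level was 3486 to 4181 CPM in early telogen KO and 1511 to 2245 CPM in WT. In anagen the sum was 3242 to 3282 CPM in KO and 1864 to 2472 CPM in WT. H2-D1, H2-K1 and B2m hold most of these sums. The single female WT library of anagen, replicate 1, had the lowest anagen sum (1864 CPM, against 1907 CPM in WT replicate 2). With the sex label as a covariate the anagen median over the 33 genes tested was 0.70, with 0 members passing by edgeR and 1 gene in all. As both KO libraries were female, that estimate rests on WT replicate 1 alone for the controls, so it cannot separate sex from that library.

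Among the transcription factors, Irf7 gave estimates of opposite sign in the stages. Irf7 is an interferon-induced factor that amplifies type I interferon production. In anagen it was at 37.0 and 49.9 CPM in KO and at 22.4, 11.3 and 18.3 CPM in WT. In early telogen it was at 6.77, 8.53, 5.86 and 6.39 CPM in KO and at 7.59, 9.08 and 7.83 CPM in WT. The anagen groups lay apart (log2 fold change 1.23 ± 0.30, edgeR adjusted p = 0.240) and the early telogen groups overlapped (-0.43 ± 0.30, edgeR adjusted p = 0.617). The difference of the KO effect between the stages was -1.69 ± 0.37 (edgeR adjusted p = 0.108). The Irf7 gene overlaps Phrf1 on the opposite strand, and no ISRE-type or GAS-type match lay in its window.

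Irf1, a factor induced by interferon gamma that activates class I pathway genes, was at 148, 235, 173 and 199 CPM in early telogen KO and at 89.2, 104 and 138 CPM in WT (log2 fold change 0.60 ± 0.21, edgeR adjusted p = 0.247). In anagen Irf1 was at 228 and 227 CPM in KO and at 170.3, 163 and 212 CPM in WT (log2 fold change 0.24 ± 0.20, edgeR adjusted p = 0.761). Both stages were without overlap. Irf9, the DNA-binding part of the type I complex, was at 25.2, 28.3, 11.2 and 23.7 CPM in early telogen KO and at 9.55, 9.55 and 9.46 CPM in WT (log2 fold change 1.01 ± 0.28, edgeR adjusted p = 0.126). KO replicate 3 stood lowest, close to WT. In anagen Irf9 overlapped, with 16.6 and 28.5 CPM in KO and 13.5, 14.9 and 21.1 CPM in WT. Irf9 shares exon sequence with Rnf31 on the same strand. Stat2, its partner, was at 19.6 to 37.8 CPM in early telogen KO and 15 to 16.1 CPM in WT, and overlapped in anagen (12.7 and 23.7 CPM in KO, 11.9 to 25.4 CPM in WT).

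**Figure D4:**
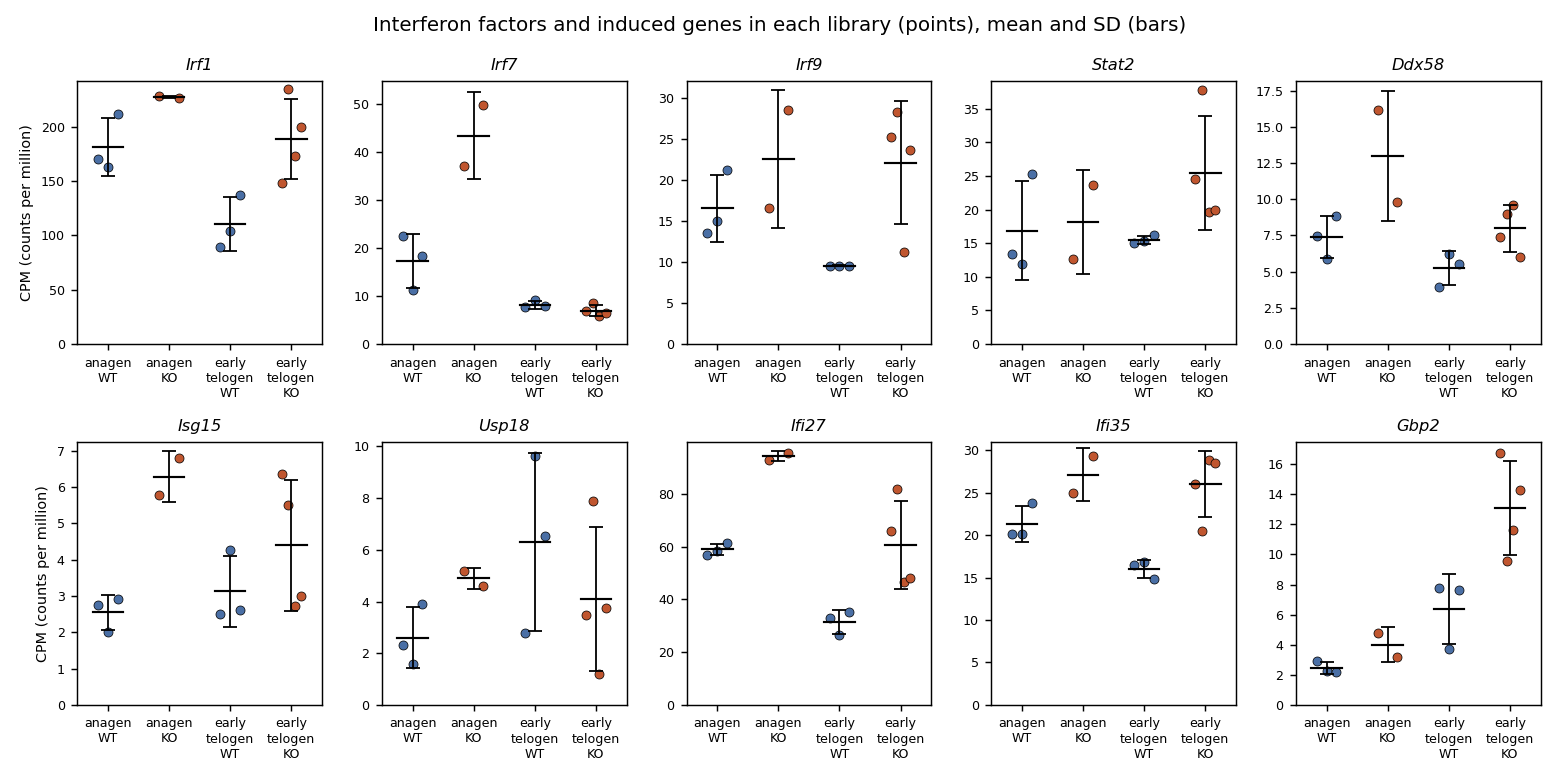
CPM of 4 transcription factors, the sensor Ddx58 and 5 induced genes in each library (points), with group mean and SD (bars). Irf7 and Isg15 separate the genotypes in anagen and overlap in early telogen, while Irf1, Ifi27, Ifi35 and Gbp2 separate them in both.

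The RNA sensors Ddx58 and Ifih1 were higher in KO in anagen, with log2 fold changes of 0.73 and 0.50. Ddx58 encodes RIG-I and was at 16.2 and 9.78 CPM in anagen KO against 7.43, 5.89 and 8.82 CPM in WT, without overlap. In early telogen Ddx58 was at 7.36, 8.97, 9.60 and 6.01 CPM in KO against 3.93, 6.21 and 5.55 CPM in WT, which overlapped. Ifih1, encoding MDA5, was at 12.1 and 10.6 CPM in anagen KO against 6.53, 6.72 and 9.33 CPM in WT. Its early telogen groups overlapped, with 10.7, 13.1, 8.79 and 9.02 CPM in KO and 6.96, 11.2 and 9.62 CPM in WT, and a log2 fold change of -0.02. None of these passed, and Dhx58 (LGP2) was at 1.10 CPM or less in every library.

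Isg15, a ubiquitin-like protein joined to other proteins during the response, was at 5.79 and 6.79 CPM in anagen KO and at 2.75, 2.0 and 2.91 CPM in WT (log2 fold change 1.21 ± 0.34, edgeR adjusted p = 0.290). In early telogen it was at 6.34, 5.51, 2.73 and 3.01 CPM in KO and at 2.50, 4.26 and 2.61 CPM in WT (0.30 ± 0.46, edgeR adjusted p = 0.858). The early telogen KO libraries split, with replicates 1 and 2 above WT and replicates 3 and 5 within its range. Usp18, which removes ISG15 from proteins, was at 5.17 and 4.62 CPM in anagen KO and at 2.33, 1.57 and 3.90 CPM in WT. In early telogen Usp18 was at 3.47, 7.91, 1.21 and 3.76 CPM in KO and at 2.77, 9.64 and 6.52 CPM in WT. There the estimate was negative (-0.88 ± 0.56, edgeR adjusted p = 0.580) and WT replicate 3 stood highest.

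The IFIT and OAS genes, which encode proteins that bind or act on foreign RNA, were close to the detection limit. Ifit1 was at 0.540 and 0.620 CPM in anagen KO and at 0.422, 0.0308 and 0.224 CPM in WT. In early telogen Ifit1 was at 0, 1.33, 0.404 and 0 CPM in KO and at 1.70, 1.95 and 0.326 CPM in WT, a negative estimate of -1.69 ± 1.05 (edgeR adjusted p = 0.569). Anagen KO lay above WT and the early telogen groups overlapped, on sums of 39 and 31 counts in anagen KO and WT and of 19 and 42 counts in early telogen KO and WT. Ifit2 was at 0.823 and 0.620 CPM in anagen KO against 0.697, 0.154 and 0.128 CPM in WT, and at 0 to 1.10 CPM in early telogen KO against up to 0.63 CPM in WT. Ifit3 was at most 3.34 CPM in any library, in early telogen WT replicate 3.

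Oasl2 was at 2.47 and 1.58 CPM in anagen KO and at 0.899, 0.154 and 1.02 CPM in WT, without overlap. In early telogen it was at 2.03, 2.13, 0.505 and 1.88 CPM in KO and at 0.893, 4.91 and 0.652 CPM in WT. The highest library was again WT replicate 3, and the groups overlapped. Oas3 was at 0.849 and 0.517 CPM in anagen KO against 0.459, 0.401 and 0.639 CPM in WT, and in early telogen it had counts in 1 KO library (replicate 2, 1.15 CPM) and 1 WT library (replicate 3, 0.742 CPM). Oas2 did not exceed 1.30 CPM, again in early telogen WT replicate 3. WT replicate 3 was thus the highest early telogen library for Irf7, Usp18, Bst2, Ifit1, Ifit3, Oas2, Oasl2 and Ifi44, genes picked out after their values were seen.

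Of the other induced effectors, Ifi27 had the smallest p in both stages. Ifi27 encodes a small membrane protein strongly induced by type I interferon. In anagen it was at 93.0 and 95.8 CPM in KO and at 57.1, 58.6 and 61.3 CPM in WT (log2 fold change 0.59 ± 0.17, edgeR adjusted p = 0.302). In early telogen it was at 66.1, 81.8, 46.8 and 48.1 CPM in KO and at 32.9, 26.4 and 35.1 CPM in WT (0.77 ± 0.19, edgeR adjusted p = 0.0899). The groups were apart in both stages. Ifi35, an interferon-induced leucine zipper protein, was at 26.1, 20.5, 28.9 and 28.5 CPM in early telogen KO and at 16.5, 16.8 and 14.8 CPM in WT (0.53 ± 0.24, edgeR adjusted p = 0.380). In anagen Ifi35 was at 24.9 and 29.3 CPM in KO and at 20.2, 20.1 and 23.7 CPM in WT.

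Rsad2, which encodes viperin, was at 1.49 and 1.34 CPM in anagen KO and at 0.349, 0.308 and 0.799 CPM in WT (log2 fold change 1.47 ± 0.59, edgeR adjusted p = 0.474). Its early telogen groups overlapped, with 2.88, 2.93, 0.606 and 1.13 CPM in KO and 1.70, 1.30 and 0.979 CPM in WT. Bst2, Mx2 and Xaf1 overlapped between genotypes in both stages, at 0 to 6.04 CPM in all 12 libraries. Rtp4 was at 0.386 and 0.413 CPM in anagen KO, above the 0.202 to 0.351 CPM of WT, and overlapped in early telogen. Ifi44 had 0 counts in the 4 early telogen KO libraries together and 19 counts in WT, 13 of them in replicate 3. The pooled WT level of Ifi44, 0.676 CPM, was 8.03-fold a floor of 3 counts over the KO group (0.0842 CPM). Without WT replicate 3, on 6 counts in WT, it was 4.11-fold that floor. The floor covers counting error in KO only. Counting error in WT and the spread between libraries were not included, so these ratios are not lower limits.

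Summed over the 18 effectors, the level was 147 to 156 CPM in anagen KO and 92.8 to 109 CPM in WT. In early telogen the sum was 100.3 to 149 CPM in KO and 73.4 to 86.9 CPM in WT. Ifi27 and Ifi35 held more than the other 16 together in each mean.

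Gbp2 and Gbp3 encode guanylate-binding proteins, which are induced mainly by interferon gamma. Gbp2 was at 16.7, 9.60, 11.6 and 14.3 CPM in early telogen KO and at 7.77, 3.71 and 7.67 CPM in WT (log2 fold change 0.89 ± 0.35, edgeR adjusted p = 0.298). In anagen Gbp2 was at 4.81 and 3.17 CPM in KO and at 2.92, 2.22 and 2.20 CPM in WT (0.62 ± 0.38, edgeR adjusted p = 0.646). KO stood above WT in both stages. Gbp3 was at 1.78, 1.69, 1.21 and 1.5 CPM in early telogen KO and at 1.25, 0.834 and 0.326 CPM in WT, and at 0.412 and 1.24 CPM in anagen KO and 0.459, 0.709 and 0.958 CPM in WT, overlapping in both.

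Lgals9 (chr11:78962974-78984946, minus strand, 11 merged exons) encodes galectin-9, a sugar-binding protein that modulates T cells. In early telogen it was at 23.2, 33.4, 14.8 and 23.3 CPM in KO and at 10.8, 7.60 and 7.18 CPM in WT. Lgals9 rose (log2 fold change 1.27 ± 0.27, edgeR adjusted p = 0.0401), with no overlap. In anagen it was at 72.0 and 56.6 CPM in KO and at 31.7, 14.9 and 25.7 CPM in WT, again without overlap, at 1.33 ± 0.31 (edgeR adjusted p = 0.221). Lgals3bp, a secreted glycoprotein that binds galectins, overlapped in both stages, at 3.54 to 9.33 CPM in early telogen KO and 3.48 to 8.53 CPM in WT, and at 2.08 and 4.03 CPM in anagen KO and 1.05 to 3.87 CPM in WT.

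The 3 early telogen calls depended on single libraries, while their direction did not. With KO replicate 5, WT replicate 1 or WT replicate 3 left out, 0 members passed. Without KO replicate 1 or WT replicate 4, Psmb8 alone passed. Without KO replicate 2, B2m and Psmb8 passed, and without KO replicate 3 there were 4: Irf9, Lgals9, Psmb8 and Psmb9. Over these 7 fits the log2 fold change was 1.35 to 1.95 for Psmb8, 0.98 to 1.30 for B2m and 1.14 to 1.43 for Lgals9. The number of genes called in all ran from 19 to 131.

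The early telogen KO effect could be combined with that in anagen, in a contrast chosen after the data were seen that averages the KO effects of the stages over all 12 libraries. By edgeR, 6 of 32 members rose and 0 fell, against 0.682% of 13193 genes that rose and 2.05% that fell. They were Lgals9 at 1.29 ± 0.20 (log2 fold change ± SE, edgeR adjusted p = 0.00354), B2m at 0.88 ± 0.16 (0.00946), Ifi27 at 0.67 ± 0.13 (0.0106), Psmb8 at 1.02 ± 0.21 (0.0166), Psmb9 at 1.21 ± 0.26 (0.0224) and Tap1 at 0.82 ± 0.18 (0.0262). H2-D1, at 0.72 ± 0.18, had an edgeR adjusted p of 0.0547. With each library left out in turn, 3 to 7 members rose, and B2m, Ifi27 and Lgals9 passed in all 12 fits. The count of 3 came without anagen KO replicate 1. With either anagen KO library left out, that group was 1 library, assumed in the fit to vary like the other groups. The KO effect itself differed between the stages for 0 of 32 members by edgeR, where 0.129% of all genes were higher and 0.0152% lower. At an unadjusted p under 0.05 there were 2 members, Irf7 and Psmb8, the latter at 1.13, against 6.37% of all genes. DESeq2 called 148 genes (1.16% of those given an adjusted p), Irf7 among them.

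The KO effect was also read by promoter letters. The 12 genes with an ISRE-type match that were tested in anagen had a median log2 fold change of 0.63, and the 15 with a window but no such match had 0.49. Every anagen KO library lay above every WT library for 8 of the 12 and 10 of the 15, against 18.5% of all genes. In early telogen the medians were 0.45 over 11 genes and 0.56 over 14 genes. There, every KO library lay above every WT library for 4 of the 11 and 9 of the 14, against 9.75% of all genes.

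Between the stages, few of the genes differed. In WT, Gbp2 rose from anagen to early telogen and 4 of 29 members fell (Irf1, Irf7, Ifi27 and Lgals9), against 13.6% and 15.9% of 12718 genes. Lgals9 fell by 1.40 ± 0.30 (log2 units, edgeR adjusted p = 0.00767) and Ifi27 by 0.82 ± 0.16 (0.00579), and both passed with each of the 6 libraries left out. Irf7 fell by 0.99, Irf1 by 0.63, and Gbp2 rose by 1.45, with edgeR adjusted p-values of 0.0277, 0.0389 and 0.0225. These 3 were less stable: Irf7 failed to pass without anagen replicate 1 or 3 or early telogen replicate 1 or 4, Irf1 in every fit but that without early telogen replicate 4, and Gbp2 in every fit but those without anagen replicate 1 or early telogen replicate 3. Medians were -0.05 over the members and -0.10 over all genes.

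In KO, Gbp2 and Psmb8 rose from anagen to early telogen and Irf7 and Lgals9 fell, of 30 members tested, against 10.2% of 12771 genes that rose and 12% that fell. Irf7 fell by 2.67 ± 0.25 (log2 units, edgeR adjusted p = 7.35e-05) and Lgals9 by 1.48 ± 0.25 (0.00271). With each library left out in turn, the estimates ran from -2.89 to -2.48 for Irf7 and from -1.68 to -1.31 for Lgals9. Without either anagen KO library, that group was 1 library in the fit. Gbp2 rose by 1.71 ± 0.41 (0.0137) and Psmb8 by 1.15 ± 0.27 (0.0121), and both failed to pass without anagen KO replicate 2, where the lone anagen library was likewise assumed to vary like the early telogen ones. In WT the stage estimate for Psmb8 was 0.02 ± 0.31. The stage comparisons share libraries with the KO comparisons above.

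The wider pathway was read from lists of other genes. Of 9 interferon ligands, those other than Ifnk were too low to test, and the summed level was at most 2.43 CPM in any library. Ifnk, an interferon of keratinocytes, rose from anagen to early telogen in KO (log2 fold change 4.07, edgeR adjusted p = 0.0230), on 6 counts in anagen and 57 in early telogen. Of 9 receptor and kinase genes, 0 passed in either KO comparison by edgeR, all 9 estimates were positive in early telogen and 7 in anagen, and the medians were 0.59 and 0.60. Ifngr1, a chain of the interferon gamma receptor, had the smallest p, at 16.4, 28.7, 16.6 and 9.77 CPM in early telogen KO and 6.61, 5.47 and 7.18 CPM in WT (log2 fold change 1.30 ± 0.31, edgeR adjusted p = 0.0742). In the average over stages Ifngr1 and Ifnar2 rose, by 1.02 and 1.06 (edgeR adjusted p = 0.0120 and 0.0204). From anagen to early telogen, 6 of these 9 fell and Jak1 rose in WT, and 4 fell and Jak1 rose in KO.

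Of 46 other interferon-induced genes tested in anagen and 41 in early telogen, 0 passed by edgeR, with medians of 0.26 and 0.30. Cxcl10, a chemokine that attracts T cells, had the smallest p of them in early telogen and rose in the average over stages by 1.94 ± 0.39 (edgeR adjusted p = 0.0170). Of 15 other class I pathway genes tested in anagen and 14 in early telogen, 0 passed in KO. Among the latter, H2-Q4, a non-classical class I gene, had the smallest p (log2 fold change 0.77 ± 0.20, edgeR adjusted p = 0.102). Nlrc5, the transactivator of class I genes, was at 115, 107, 149.6 and 81.5 CPM in early telogen KO and at 63.7, 45.7 and 62.8 CPM in WT (0.83 ± 0.23, edgeR adjusted p = 0.124). It rose from anagen to early telogen in WT by 1.47 and in KO by 2.04. For the other STAT and IRF factors (12 tested in anagen, 11 in early telogen), the sensor adaptors and kinases (13 and 12) and the negative regulators (8 and 8), 0 passed in either KO comparison by edgeR.

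Immune cells express many of these genes strongly, and bulk values cannot tell fewer cells of a type from less RNA per cell. Of 17 immune markers in both tables, 15 were tested in anagen and 10 in early telogen, and 0 passed in KO. Their summed level overlapped between genotypes, at 37.5 to 80.7 CPM in anagen KO, 20.4 to 75.0 CPM in WT, 37.2 to 90.1 CPM in early telogen KO and 35.2 to 76.3 CPM in WT. In early telogen 9 of the 10 estimates were positive, with a median of 0.48, and in anagen 11 of 15, with a median of 0.86. Ptprc, which encodes the leukocyte antigen CD45, was at 1.27, 7.29, 4.45 and 1.13 CPM in early telogen KO, above the 0.536, 0.0927 and 0.816 CPM of WT (log2 fold change 2.77 ± 0.85, edgeR adjusted p = 0.169). Cd68, a macrophage marker, was lower in every early telogen KO library than in every WT library (-1.02 ± 0.25, edgeR adjusted p = 0.0856). Up to 5 of the 17 markers were at 0 counts in an early telogen KO library and up to 8 in a WT library, and none was at 0 in all libraries of a group.

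Class II pathway genes, which mark professional antigen-presenting cells, overlapped, at 82.6 to 317 CPM in early telogen KO and 29.7 to 129 CPM in WT, and at 86.2 and 321 CPM in anagen KO and 40.6 to 202 CPM in WT, and 0 of 7 passed in either stage by edgeR. Of their 7 estimates, all were positive in anagen, with a median of 0.71, and 6 in early telogen, with a median of 1.0, beside the 0.52 and 0.49 of the 36 genes' tested members. Fibroblast markers were at 4993 CPM in early telogen KO replicate 2, against 465 to 1508 CPM in the other KO libraries and 253 to 1510 CPM in WT. KO replicate 2 was also the highest early telogen library for Psmb8, Psmb9, Tap1 and Tap2. It had the highest sum of the 9 antigen presentation genes, 4181 CPM against 3486 to 3948 CPM in the other KO libraries. Ly6a, an interferon-induced gene whose product Sca-1 was used as a negative gate, was at 56.0 CPM in that library and 6.67 to 9.02 CPM in the other KO libraries. Summed melanocyte markers were lower in anagen KO (25.5 and 30.3 CPM) than in WT (59.3 to 139 CPM) and overlapped in early telogen. Single markers went both ways there. Dct rose (edgeR adjusted p = 0.0274), and Tyr and Tyrp1 were higher in every KO library without passing. Mitf was lower in every KO library, at a mean of 64.7 CPM against 109 CPM in WT (edgeR adjusted p = 0.0621). In the average over stages Mitf fell (log2 fold change -2.15, edgeR adjusted p = 0.00479). Summed endothelial markers overlapped in both stages. The part of these cell types and of the stem cell markers in the results was not tested.

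**Figure D5:**
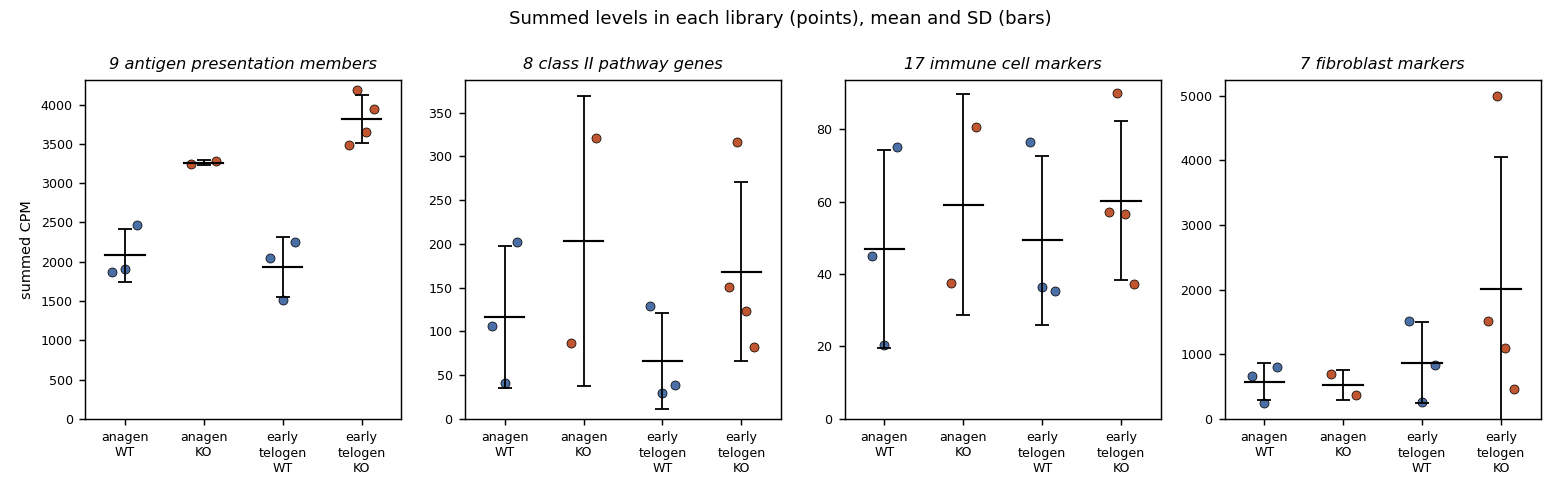
Summed CPM of the 9 antigen presentation genes, 8 class II pathway genes, 17 immune markers and 7 fibroblast markers in each library (points), with group mean and SD (bars; that of fibroblast markers in early telogen KO reaches below 0 and stops at the axis). The antigen presentation sums of KO lie above WT in both stages, and the other sums overlap.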

How the data were processed

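The authors deposited unnormalized counts of reads per gene, made with TopHat2 and HTSeq on build mm10, per the submitters' processing notes. Versions and the strand option were not given in the sources used here. RNA was oligo(dT) selected and libraries were directional, per the labels. From early telogen data 3 broken lines were left out and 27 gene names had become dates, and 0 columns were unmapped. The tables shared 37931 genes.

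CPM are counts over a library's total of gene counts, and summed levels and comparisons of ranges used them without the scaling of the fits. The test was the robust quasi-likelihood F-test of edgeR 4.0.16 (R 4.3.3). For the fits, libraries were scaled by TMM, and filterByExpr kept genes by a minimum count of 10 and a minimum total of 15. Adjustment was by Benjamini and Hochberg over all genes tested. The fit was also run on simulated counts with the same spread for every gene. These libraries differ from that setting, so the run does not give the error rate here. Each comparison used only its own groups, and the difference and the average of KO effects used all 12 libraries. Alternatives were DESeq2 1.42.0, RLE size factors, no filter, sex, replicate blocks and libraries left out. Motifs were searched in RefSeq windows, and positions came from GENCODE M21.

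The genes, lists and tests were chosen with earlier results of these data known. Each library's values were printed for members that passed, and for the 2 of smallest unadjusted p per role group and KO comparison. Of the other lists, genes that passed in a KO comparison, or the 1 of smallest p in early telogen, were named, and a few more were chosen after their values were seen. The replicates' depth sets the precision: 3 counts correspond to 0.0551 to 0.103 CPM in anagen and 0.254 to 1.13 CPM in early telogen.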

Additional observations from a re-analysis of the deposited data

Results flagged for a closer look

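In early telogen KO, the lone group of 4 libraries, 34 of the genes were examined for a library far from the others, and 6 had one. The cut-off gives about 1 in 20 for normally distributed values. CPM on few counts do not follow that shape, and Oas3 had counts in 1 of these libraries only. The 6 of 34 are therefore not read as an excess. KO replicate 1 was far above the other libraries for Dhx58, at 1.10 CPM. KO replicate 2 was far above for Oas3 (1.15 CPM), Xaf1 (6.04 CPM) and Psmb8 (64.7 CPM). KO replicate 3 was far below for Oasl2, at 0.505 CPM. KO replicate 5, the library of lowest depth, was far below for Tapbp, at 99.2 CPM. Of these, Psmb8 alone passed in a KO comparison, and it also passed without KO replicate 2.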

How the results depend on the processing

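Of 48 results followed, those for single members kept their direction in every alternative. The rest were counts and medians, for which a reversal was not scored. With libraries left out, the median over members ran from -0.16 to 0.20 in the WT stage comparison. For the difference between stages it ran from -0.21 to 0.08. For anagen KO, members that rose numbered 0 by edgeR as planned and 3 with DESeq2 (499 genes called in all), 2 with no filter on low counts (306), 2 with all 12 libraries (154), 1 with a block of title days (253) and 0 with the sex label (1). Leaving out libraries gave 0 members and 0 to 95 genes; without an anagen KO library, that group is 1 library assumed to vary like the others. For early telogen KO, 3 members rose by edgeR as planned, 6 with DESeq2 (399 genes), 8 with no filter (338), 0 with a replicate block of title numbers (11) and 0 with KO replicate 2 and WT replicate 3 both left out (47). With all 12 libraries 39 genes were called, B2m and Psmb8 among them. Leaving out libraries gave 0 to 4 members and 19 to 131 genes. The replicate numbers are not shown to pair the samples: deviations of same-numbered libraries correlated at 0.106 and 0.0532 in early telogen, and those of the same title day at 0.414 and 0.359 in anagen, with 2 pairs each. For the WT stage comparison, 1 member rose and 3748 genes were called by edgeR as planned, 5 rose with DESeq2 (4429 genes) and 4 with no filter (4098), and leaving out libraries gave 0 to 1 that rose, 2 to 4 that fell and 2312 to 3329 genes. For the KO stage comparison, 5 fell with the sex label, and leaving out libraries gave 0 to 2 that rose, 2 to 4 that fell and 1382 to 3640 genes. For the difference between stages, 1 member fell with DESeq2 (148 genes) and with no filter (409), 6 genes were called with the sex label, and leaving out libraries gave 0 to 1 members and 0 to 55 genes. The average over stages gave 802 genes with DESeq2 and 1153 with no filter, and 3 to 7 members and 163 to 449 genes with libraries left out. The cause of these differences was not tested. Counts limit Ifit1, Ifit2, Ifit3, Oas2, Oas3, Ifi44 and Dhx58.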
